A study of Mus musculus with 6 samples.

Results

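The 9 genes described here encode the receptors for the constant part of immunoglobulin G on mouse macrophages and the first enzymes that carry or restrain their signal. They were chosen by name, as the 4 Fc gamma receptor genes (Fcgr1, Fcgr2b, Fcgr3 and Fcgr4), the tyrosine kinase genes Syk, Lyn and Fgr, the phospholipase gene Plcg2 and the inositol phosphatase gene Inpp5d, out of 49315 genes in the deposited table. All 9 were found by symbol, each once, and all 9 passed the filter on low counts, which kept 12274 genes. RNA-seq was performed on RAW264.7 cells, a mouse macrophage-like line of wild-type genotype as labelled, with no infection in these samples. In the treated group, 3 libraries came from cells given SKI-II, a small molecule first described for blocking sphingosine kinases, at 4 μg/mL for 24 h. The control group had 3 libraries from cells given the same volume of the solvent DMSO for the same time. The comparison addresses which transcripts change when macrophages are exposed to SKI-II alone. Nothing in the labels says whether libraries of a group came from separate cultures, so the p-values measure the spread between these libraries, which may be technical.

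Fc gamma receptors bind antibody that coats a particle, and clustering of the activating receptors starts phagocytosis. The activating receptors of the mouse, encoded by Fcgr1, Fcgr3 and Fcgr4, signal through the partner chain encoded by Fcer1g, whose tyrosine motifs are phosphorylated by Src-family kinases such as Lyn and Fgr and then dock Syk, which activates phospholipase C gamma 2 (Plcg2) and other effectors. The receptor encoded by Fcgr2b carries an inhibitory motif instead and recruits the phosphatase SHIP1, encoded by Inpp5d, which removes a phosphate from the lipid that phosphoinositide 3-kinase makes.

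Library totals lay between 12495957 and 20050677 counts. Normalized counts are the counts set to a common library of 16042438, the mean of the scaled library sizes. A gene was called higher or lower at an adjusted p below 0.05 in the quasi-likelihood test of edgeR with Benjamini-Hochberg adjustment over all genes tested, and n is 3 libraries per group throughout. All 10 macrophage markers examined had counts in every library. Of these, 2 were higher, Cd14 among them, and Lyz2, Adgre1, Itgam and Mrc1 were lower in SKI-II, and their summed level was 8630 to 12600 CPM (counts scaled to library size) in DMSO and 5260 to 7480 CPM in SKI-II. Without Lyz2, the other 9 markers summed to 2980 to 3250 CPM in DMSO and 3450 to 3780 CPM in SKI-II, the opposite direction. That sum includes Cd14, with raw counts of 9838, 5187 and 6963 in DMSO and 20170, 21377 and 22467 in SKI-II. It also includes Adgre1, Itgam and Mrc1, which were lower, so it does not show a general rise of the other markers. Of 10 B cell markers 4 were at 0 in every library, Ms4a1, Ebf1 and Igkc among them, and the whole list summed to 11.9 to 17.6 CPM in DMSO and 0.254 to 0.476 CPM in SKI-II. Without Ighm, the other B cell markers summed to 0.0788 to 0.37 CPM and 0.254 to 0.416 CPM. Of the T and NK cell markers, 6 of 9 were at 0, and the list summed to at most 0.418 CPM. Mast cell and granulocyte markers summed to 2.18 to 6.48 CPM in DMSO and 2.02 to 7.02 CPM in SKI-II, with 4 of 10 at 0, Kit and Ly6g among them. Stromal and epithelial markers summed to at most 1.95 CPM, with 3 of 10 at 0. In such bulk samples, fewer cells of a type and less RNA per cell cannot be told apart. The part of the shifts in macrophage markers in the results below was not tested.

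Of the 9 genes, 4 were higher in SKI-II (Fcgr1, Fcgr4, Fcgr2b and Syk), 1 was lower (Fgr) and 4 did not pass the test (Fcgr3, Lyn, Plcg2 and Inpp5d). Without DMSO replicate 1 or 2, 2 of the 9 were called higher. With all libraries, the calls are 44.4% and 11.1% of the 9, beside 18.4% of all tested genes called higher and 19.7% called lower. With a log2 fold change above 1 also required, Fcgr1 and Fcgr4 were called higher, where 8.28% of all tested genes were. With a log2 fold change below -1 required, Fgr was called lower, where 7.44% of all tested genes were. The first of these counts was 1 without DMSO replicate 2, and the second was 0 without SKI-II replicate 1. The SKI-II libraries lay wholly above the DMSO libraries for 4 genes and wholly below for 3, against 24.8% and 25.5% of all tested genes, and the groups overlapped for Fcgr3 and Lyn. The median log2 fold change of the 9 was 0.33, and that of all tested genes was 0.00.

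**Figure D1:**
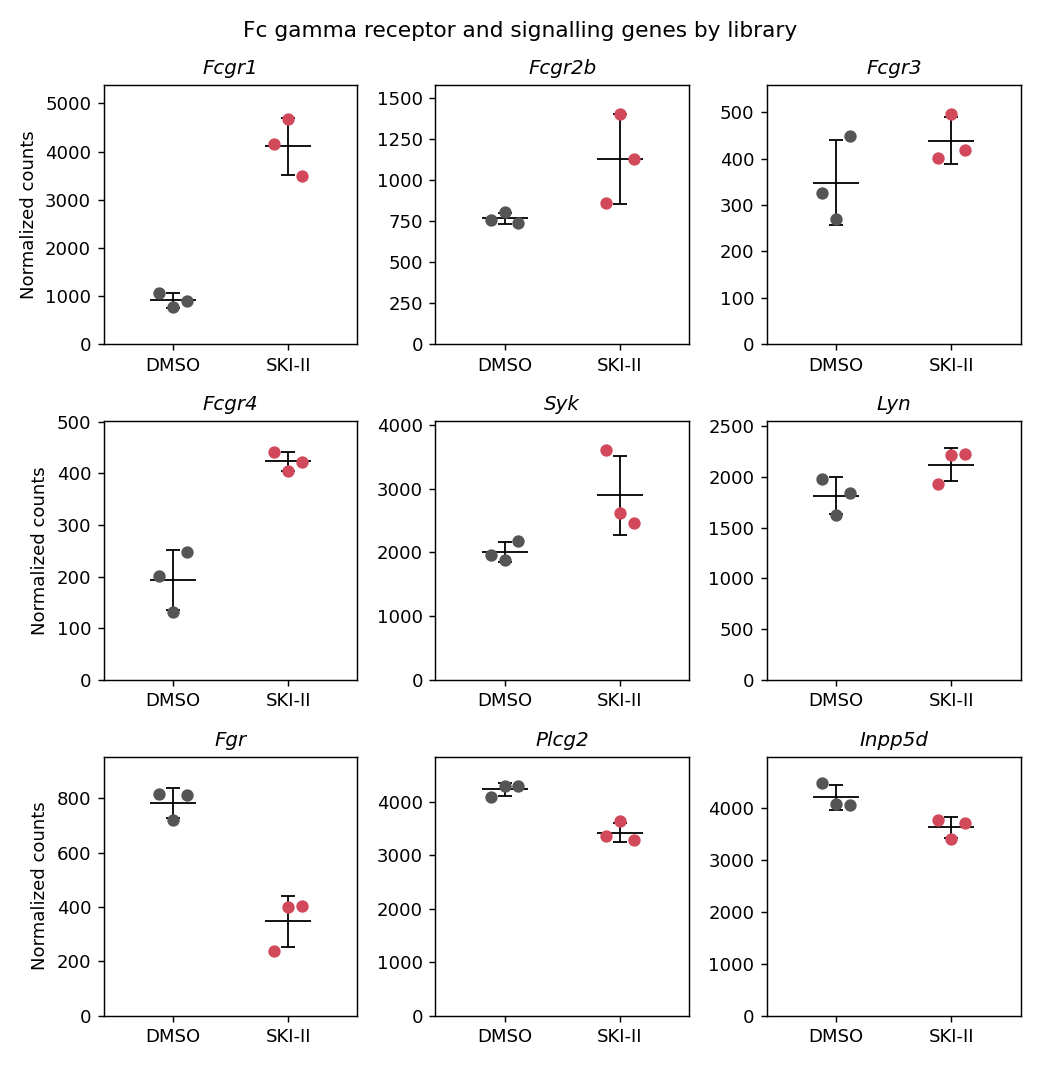
Normalized counts (vertical axes, linear, starting at 0, with a scale for each gene) of the 9 genes in the DMSO (grey) and SKI-II (red) libraries, where points are libraries and bars the mean and SD of 3. The SKI-II points of Fcgr1 and Fcgr4 lie far above the DMSO points, those of Fgr lie below, and the groups overlap for Fcgr3 and Lyn.

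Fcgr1 encodes the high-affinity receptor, the one that can bind single antibody molecules. It lies on chr3:96282909-96293969, minus strand (GRCm38, as for all gene positions given here). Its normalized counts were 1068, 766 and 892 in DMSO and 4164, 4667 and 3487 in SKI-II. Every SKI-II library held more than 3 times the count of the highest DMSO library. The means were 909 ± 152 (SD) and 4106 ± 592, a fold change of 4.51 with a 95% interval of 3.54 to 5.75 (log2 fold change 2.17, SE 0.16, adjusted p = 1.56e-05). Among the 12274 tested genes this log2 fold change ranked 245 from the top.

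The other activating receptors had smaller fitted changes. Fcgr4, on chr1:171018920-171029761, plus strand, encodes a receptor of intermediate affinity. Its normalized counts were 201, 131 and 248 in DMSO and 441, 406 and 423 in SKI-II. The SKI-II libraries were close to each other and all above the DMSO libraries, of which replicate 2 was the lowest. The rise was 2.18-fold (log2 fold change 1.12, SE 0.22, adjusted p = 0.00295). Without DMSO replicate 2 the log2 fold change was 0.91 and the call held. Fcgr3, on chr1:171051174-171064935, minus strand, encodes the low-affinity activating receptor. It gave 326, 269 and 449 normalized counts with DMSO and 401, 496 and 419 with SKI-II. DMSO replicate 3 was above 2 of the SKI-II libraries, so the groups overlapped. The log2 fold change was 0.33, with a 95% interval from -0.11 to 0.77 and an adjusted p of 0.218. Without DMSO replicate 3 it was 0.55 and passed the test (adjusted p = 0.0359).

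Fcgr2b, the inhibitory receptor gene, lies on chr1:170958617-170976547, minus strand. It held 757, 804 and 737 normalized counts with DMSO and 856, 1401 and 1127 with SKI-II. All SKI-II libraries were above all DMSO libraries, with SKI-II replicate 1 near the controls. The log2 fold change of 0.56 (SE 0.17) had an adjusted p of 0.0278. Leaving out DMSO replicate 1, 2 or 3 lost the call (adjusted p = 0.0614, 0.0723 and 0.0603) with log2 fold changes of 0.54, 0.59 and 0.53, and so did leaving out SKI-II replicate 3 (0.56, adjusted p = 0.05). Leaving out SKI-II replicate 2 gave a lower log2 fold change of 0.38 (adjusted p = 0.122).

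The coding sequences of the neighbouring genes Fcgr2b and Fcgr3 share a run of 129 bases, printed here since it bears on both values. A read that falls wholly within this run cannot be assigned by its own sequence, and how many did so was not tested. The run lies on the minus strand of GRCm38, at chr1:170967980-170968081 and chr1:170966674-170966700 in Fcgr2b and at chr1:171057691-171057792 and chr1:171054167-171054193 in Fcgr3.
Fcgr2b and Fcgr3 shared run: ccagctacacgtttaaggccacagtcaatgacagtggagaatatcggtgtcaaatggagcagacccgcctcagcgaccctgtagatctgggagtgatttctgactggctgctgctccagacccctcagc
Of all 50-base windows in the annotated transcripts, 9.58% of those of Fcgr3 also occurred in Fcgr2b, and 2.92% of those of Fcgr2b also occurred in Fcgr3. No other receptor pair shared a run over 14 bases, and no window of Fcgr1 or Fcgr4 occurred in another gene. No source used here says how the counting treated reads that fit both genes, so the values of Fcgr2b and Fcgr3 are uncertain to that extent. The antisense gene Gm38204 overlaps the exons of Fcgr2b by 155 bases and held at most 6 counts in a library.

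Within each library, the balance of activating to inhibitory receptor transcripts was taken as the log2 ratio of normalized counts. The counts in these ratios were not corrected for length, so only their difference between groups is read. For the summed activating receptors this difference also depends on length. Without the correction Fcgr1 (2589 bases of exon) weighs more in the sum than Fcgr3 (1736) and Fcgr4 (1256). The linear ratio of Fcgr1 to Fcgr2b was 1.41, 0.953 and 1.21 in DMSO and 4.86, 3.33 and 3.09 in SKI-II. These ranges did not overlap, and the log2 ratio was higher by 1.65 in SKI-II (exact permutation test, two-sided, p = 0.1, Benjamini-Hochberg adjusted over the 4 receptor ratios 0.2). With 3 libraries against 3, 0.1 is the smallest p this test can give. For the sum of the activating receptors against Fcgr2b the linear ratio was 2.11, 1.45 and 2.16 in DMSO and 5.85, 3.98 and 3.84 in SKI-II. The groups again lay apart, by 1.25 on the log2 scale (exact p = 0.1, adjusted 0.2). The ratio of Fcgr4 to Fcgr2b differed by 0.65 (exact p = 0.2, adjusted 0.267) and that of Fcgr3 to Fcgr2b by -0.17 (exact p = 0.7, adjusted 0.7), and in both the groups overlapped.

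Fcgr1 made up a larger share of the receptor transcripts in every SKI-II library than in any DMSO library. Levels were set on a common scale by dividing the normalized counts by the length of all annotated exons in kilobases. Fcgr1 made up 42.0% ± 4.59 (SD) of the summed level of the 4 receptors in DMSO and 66.8% ± 2.81 in SKI-II. The share of Fcgr2b was 16.1% ± 3.38 and 8.21% ± 1.63, and that of Fcgr3 was 23.8% ± 3.61 and 10.7% ± 0.76. For these 3 genes no SKI-II library overlapped a DMSO library, whereas the share of Fcgr4, 18.1% ± 3.09 and 14.4% ± 1.94, overlapped. The summed level itself was 694 to 927 normalized counts per kilobase in DMSO and 2119 to 2653 in SKI-II. With the length of the longest transcript instead, the share of Fcgr1 was 35.9% and 61.7%.

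**Figure D2:**
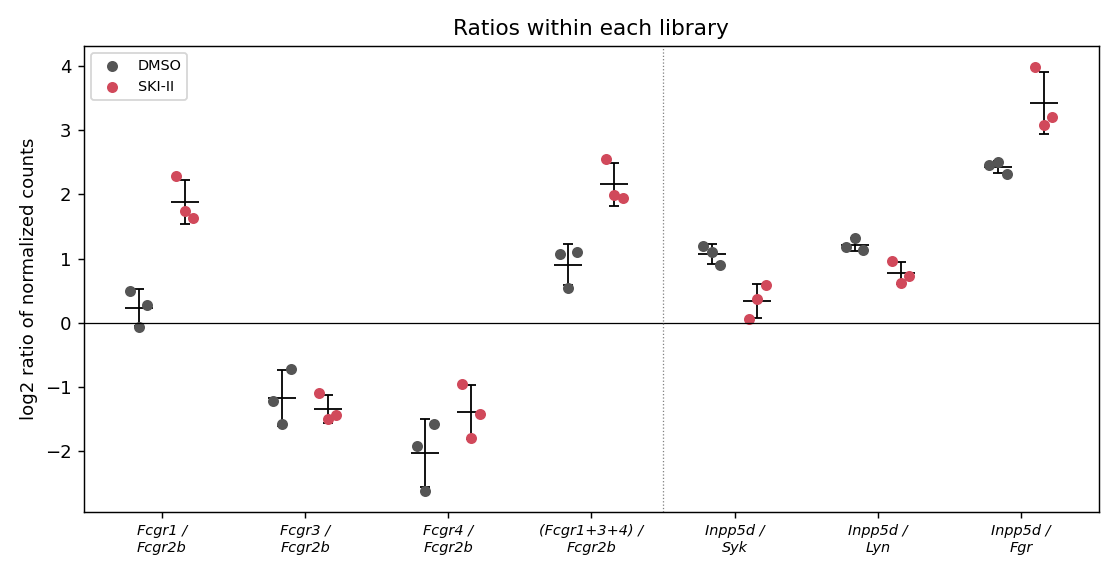
Log2 ratio of normalized counts within each library (vertical axis) for 4 receptor ratios and 3 phosphatase to kinase ratios in DMSO (grey) and SKI-II (red), where points are libraries and bars the mean and SD of 3. The groups lie apart for Fcgr1 to Fcgr2b, for the summed activating receptors and for the 3 Inpp5d ratios.

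**Figure D3:**
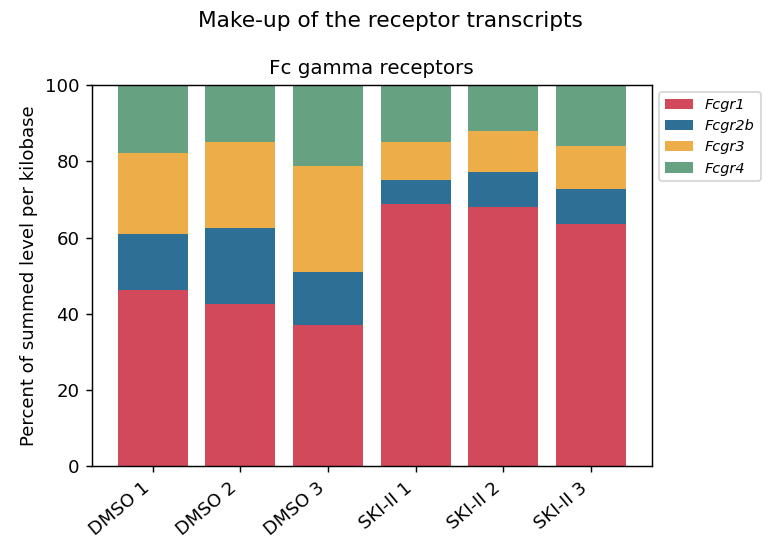
Percent of the summed level per kilobase (vertical axis, exon length) taken by each Fc gamma receptor gene in each of the 6 libraries. Fcgr1 holds the larger part of each SKI-II bar, at a mean of 66.8% against 42.0% in DMSO.

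Of the Src-family kinase genes among the 9, Fgr was lower and Lyn was not called. Fgr, on chr4:132974095-133001910, plus strand, encodes a kinase of myeloid cells. Its normalized counts were 817, 720 and 812 in DMSO and 238, 401 and 403 in SKI-II. All SKI-II libraries were below all DMSO libraries, and SKI-II replicate 1 was the lowest. The level in SKI-II was 0.445 of that in DMSO (95% interval 0.328 to 0.603, log2 fold change -1.17, SE 0.20, adjusted p = 0.00148). Without SKI-II replicate 1 the log2 fold change was -0.97 and the call held.

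Lyn, on chr4:3678115-3813122, plus strand, encodes the kinase that serves both the activating and the inhibitory receptors. It gave 1985, 1624 and 1846 normalized counts with DMSO and 1931, 2214 and 2226 with SKI-II. SKI-II replicate 1 lay below DMSO replicate 1, and the groups overlapped. The log2 fold change was 0.22, with a 95% interval from -0.05 to 0.50 (adjusted p = 0.182). Of the 50-base windows of Lyn, 13.4% also occurred in Gm11787 and 4.92% in Gm26857, which overlaps it on the opposite strand, and these genes held at most 6 and 19 counts in a library.

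Syk, the kinase that docks on the phosphorylated receptor chain, lies on chr13:52583173-52648792, plus strand. Its normalized counts were 1953, 1889 and 2178 in DMSO and 3611, 2626 and 2465 in SKI-II. The groups did not overlap, and SKI-II replicate 1 was well above the others. The rise was 1.44-fold (log2 fold change 0.53, SE 0.16, adjusted p = 0.023). Leaving out replicate 1 of SKI-II or replicate 1 or 2 of DMSO gave adjusted p-values of 0.0622, 0.0505 and 0.101, with log2 fold changes of 0.34, 0.50 and 0.48.

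Plcg2 and Inpp5d, the enzymes that act on membrane inositol lipids, were slightly lower in every SKI-II library and neither was called. Plcg2, on chr8:117498291-117635142, plus strand, held 4089, 4293 and 4295 normalized counts with DMSO and 3351, 3628 and 3283 with SKI-II. Its groups lay apart with little spread. The log2 fold change was -0.30 (SE 0.11, 95% interval from -0.55 to -0.06) and the adjusted p was 0.0541, which became 0.0467 when libraries were scaled by their totals alone. Inpp5d, on chr1:87620312-87720507, plus strand, held 4485, 4077 and 4061 normalized counts with DMSO and 3770, 3406 and 3705 with SKI-II. Its SKI-II libraries were also all below the DMSO libraries. The log2 fold change was -0.21 (SE 0.11, 95% interval from -0.47 to 0.04, adjusted p = 0.168).

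Set against the kinases in the same library, the ratios of Inpp5d to Syk and Lyn lay lower and that to Fgr higher in SKI-II, without reaching a p below 0.05. The linear ratio of Inpp5d to Syk was 2.30, 2.16 and 1.86 in DMSO and 1.04, 1.30 and 1.5 in SKI-II. The ratio of Inpp5d to Lyn was 2.26, 2.51 and 2.20 in DMSO and 1.95, 1.54 and 1.66 in SKI-II. The ratio of Inpp5d to Fgr was 5.49, 5.66 and 5.00 in DMSO and 15.8, 8.50 and 9.19 in SKI-II. All 3 ratios separated the groups, with log2 differences of -0.73, -0.44 and 1.00. Each had an exact permutation p of 0.1 (two-sided, adjusted over the 3 ratios 0.1), the smallest possible.

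**Figure D4:**
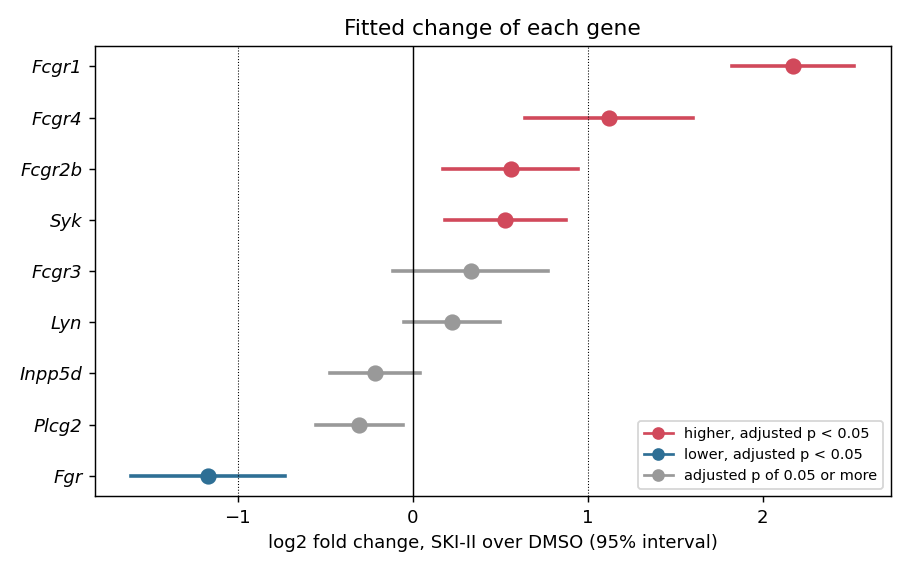
Log2 fold change of SKI-II over DMSO (horizontal axis) with its 95% interval for each of the 9 genes, coloured by the call at an adjusted p of 0.05, with dotted lines at -1 and 1. Fcgr1 stands at 2.17 and Fgr at -1.17, and the intervals of Fcgr3, Lyn and Inpp5d cross 0.

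The order of the 9 genes by level per kilobase of exon differed between the groups. In DMSO it ran from Plcg2 (983 ± 27.6 normalized counts per kilobase, SD) through Inpp5d (554 ± 31.6), Lyn (446 ± 44.8) and Fcgr1 (351 ± 58.7) to Syk (214 ± 16.2), Fgr (203 ± 14.1), Fcgr3 (200 ± 52.8), Fcgr4 (154 ± 46.5) and Fcgr2b (132 ± 5.93). From Syk down to Fcgr2b, each neighbour in that order differed from the next by less than the larger of their SDs. In SKI-II the order was Fcgr1 (1586 ± 229), Plcg2 (796 ± 42.5), Lyn (521 ± 40.9), Inpp5d (477 ± 25.6), Fcgr4 (337 ± 14.1), Syk (310 ± 66.3), Fcgr3 (253 ± 29.2), Fcgr2b (195 ± 47.0) and Fgr (89.9 ± 24.5). There Syk lay within its SD of both Fcgr4 and Fcgr3, and the other neighbours lay further apart than the larger of their SDs. With the longest transcript as the length, Plcg2 still led in DMSO and Fcgr1 in SKI-II. By that length Syk (374) stood above Fcgr1 (351), Fcgr3 (258) above Fgr (233) and Fcgr2b (216) above Fcgr4 (154) in DMSO. In SKI-II, Inpp5d (735) then stood above Lyn (613) and Syk (541) above Fcgr4 (337).

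The promoters of Fcgr1, Fcgr4 and Fgr, the 3 genes with the largest changes among the 9, are printed from RefSeq (GRCm38.p6), each from 250 bases before to 50 bases after the annotated start. The capitals mark GAGGAA, the core bound by the myeloid factor PU.1, or its reverse complement.
Fcgr1, chr3:96293920-96294219, minus strand: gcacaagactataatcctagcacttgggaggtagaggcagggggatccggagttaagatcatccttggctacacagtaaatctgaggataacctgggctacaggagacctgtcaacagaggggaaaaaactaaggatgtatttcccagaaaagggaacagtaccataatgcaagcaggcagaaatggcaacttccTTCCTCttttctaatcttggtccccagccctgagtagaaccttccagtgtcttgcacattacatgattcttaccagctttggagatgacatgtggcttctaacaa
Fcgr4, chr1:171018676-171018975, plus strand: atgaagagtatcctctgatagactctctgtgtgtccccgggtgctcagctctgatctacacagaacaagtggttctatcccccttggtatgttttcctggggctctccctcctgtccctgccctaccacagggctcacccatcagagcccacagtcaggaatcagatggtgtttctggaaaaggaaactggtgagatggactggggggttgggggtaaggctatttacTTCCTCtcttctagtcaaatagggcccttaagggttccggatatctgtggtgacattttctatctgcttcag
Fgr, chr4:132973845-132974144, plus strand: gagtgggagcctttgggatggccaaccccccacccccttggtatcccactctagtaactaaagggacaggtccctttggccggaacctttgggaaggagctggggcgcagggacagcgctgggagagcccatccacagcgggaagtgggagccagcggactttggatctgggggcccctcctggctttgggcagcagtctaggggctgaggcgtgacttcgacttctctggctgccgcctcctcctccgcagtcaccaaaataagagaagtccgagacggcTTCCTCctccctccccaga
In all 3, GAGGAA was found on the opposite strand, printed as TTCCTC. The first printed base of TTCCTC lay 55 bases before the start in Fcgr1, 22 before it in Fcgr4 and 31 after it in Fgr. The table held 10 promoters of 8 of the 9 genes, and GAGGAA was present on either strand in 7 of the 10, while 28.3% of all 32851 promoters of this length held it. The 7 belong to 6 genes (Fcgr1, Fcgr3, Fcgr4, Syk, Fgr and Inpp5d), and the 2 entries of Fcgr3 overlap. TGACNNNGC, the antioxidant response element bound by Nrf2, was found in none of the 10 and in 12.4% of all promoters. A match is a description of the letters in these windows, and genes with GAGGAA were found among those that rose, fell or were not called.

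The signalling chain genes Fcer1g and Tyrobp were not called. Fcer1g, the common signalling chain, held 3341 ± 73.0 normalized counts with DMSO and 3287 ± 248 with SKI-II (log2 fold change -0.02, SE 0.11, adjusted p = 0.891), with a 95% interval of the fold change from 0.826 to 1.17. Tyrobp, the related chain DAP12, had a log2 fold change of 0.07 (SE 0.16, adjusted p = 0.758). Of the 14 genes listed as Fc receptor chains and other Fc-binding proteins, 6 were tested and none was called by edgeR, DESeq2 or limma-voom. At an unadjusted p below 0.05, 2 of the 6 were higher and 0 lower, where 23.4% and 23.9% of all tested genes were. Their median log2 fold change was 0.41. Without DMSO replicate 1 or 3, edgeR called 2 and 1 of them higher.

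Among 11 tested genes of other Src, Syk and Tec family kinases and the proteins that set their activity, 6 were higher (54.5%, against 18.4% of all tested genes) and 2 lower (18.2%, against 19.7%), with a median log2 fold change of 0.50. Leaving out each library in turn, 4 to 5 of this list were called higher and 2 lower. The largest rises were those of Ptpn12 (1.16, SE 0.12, adjusted p = 8.8e-05) and Ptpn22 (1.05, SE 0.12, adjusted p = 0.000145), which encode tyrosine phosphatases rather than kinases. Other called members, named after their values were seen, were the kinases Lck (0.97), Src (0.67) and Fyn (0.60) and the adaptor Pag1 (0.50), which were higher, and Csk (-0.44), the kinase that inactivates the Src family, which was lower. Btk (-0.06, adjusted p = 0.769) and Tec (-0.02, adjusted p = 0.93) were not called.

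Of the adaptors, exchange factors and lipid or protein kinases downstream of the receptors, 40 were tested, 8 were higher (20%, against 18.4% of all tested genes) and 11 lower (27.5%, against 19.7%), with a median log2 fold change of -0.03. Pla2g4a, the cytosolic phospholipase that releases arachidonic acid, rose from 3989 ± 149 to 8439 ± 1340 normalized counts (log2 fold change 1.08, SE 0.14, adjusted p = 0.000355). Pik3cd, the leukocyte form of the phosphoinositide 3-kinase catalytic subunit, fell from 1729 ± 180 to 899 ± 31.0 (log2 fold change -0.94, SE 0.12, adjusted p = 0.000324). Sphk2, one of the sphingosine kinases that SKI-II is known to inhibit, held 1018, 1023 and 968 normalized counts with DMSO and 4115, 3012 and 3112 with SKI-II. It was the largest rise of this group, with the SKI-II libraries all far above the controls (log2 fold change 1.77, SE 0.14, adjusted p = 2.33e-05). No read was counted on Sphk1 in any of the 6 libraries. The count called higher in this list was 3, 5, 3 and 4 without DMSO replicate 2, DMSO replicate 3, SKI-II replicate 1 and SKI-II replicate 2, and the count called lower was 6 without SKI-II replicate 2.

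Of the genes that restrain the pathway, 19 were tested, 4 were higher and 4 lower (21.1% each, near the 18.4% and 19.7% of all tested genes), with a median log2 fold change of -0.10. Ptpn6, which encodes the phosphatase SHP-1, held 5376, 4055 and 4054 normalized counts with DMSO and 1555, 2735 and 2088 with SKI-II. Its groups lay well apart (log2 fold change -1.08, SE 0.20, adjusted p = 0.00261). Cd300a, an inhibitory receptor of myeloid cells, rose from 903 ± 84.0 to 3462 ± 744 normalized counts (log2 fold change 1.94, SE 0.17, adjusted p = 3.45e-05). Pirb, another inhibitory receptor, was higher by the same log2 fold change of 1.94 (SE 0.38, adjusted p = 0.00333), from a mean of only 48.0 ± 22.4 normalized counts in DMSO.

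Among the small GTPases and actin regulators that shape the phagocytic cup, 46 were tested, 7 were higher (15.2%, against 18.4% of all tested genes) and 14 lower (30.4%, against 19.7%), with a median log2 fold change of -0.14. Myo1f, a myosin of leukocytes, fell from 3874 ± 706 to 1620 ± 169 normalized counts (log2 fold change -1.26, SE 0.15, adjusted p = 0.000218). Evl and Aif1 had larger falls (-2.11 and -1.77, adjusted p = 0.00429 and 0.0275), at means of 49.2 and 32.0 normalized counts in DMSO. The small GTPase gene Rhog had the largest rise (0.72, SE 0.12, adjusted p = 0.00116). Named after their values were seen, the subunits of the Arp2/3 complex, which branches actin filaments, that were called were Arpc1b (-0.72), Actr2 (-0.48), Arpc3 (-0.43) and Arpc4 (-0.37), which are 4 of the 9 subunit genes tested. Not called were Arpc2 (-0.27), Arpc5 (-0.24), Arpc1a (-0.15), Actr3 (-0.13) and Arpc5l (0.15). The count called higher in this list was 4 without replicate 1 or 2 of DMSO or replicate 2 of SKI-II, and the count called lower was 8, 9 and 9 without DMSO replicate 2, SKI-II replicate 1 and SKI-II replicate 2.

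**Figure D5:**
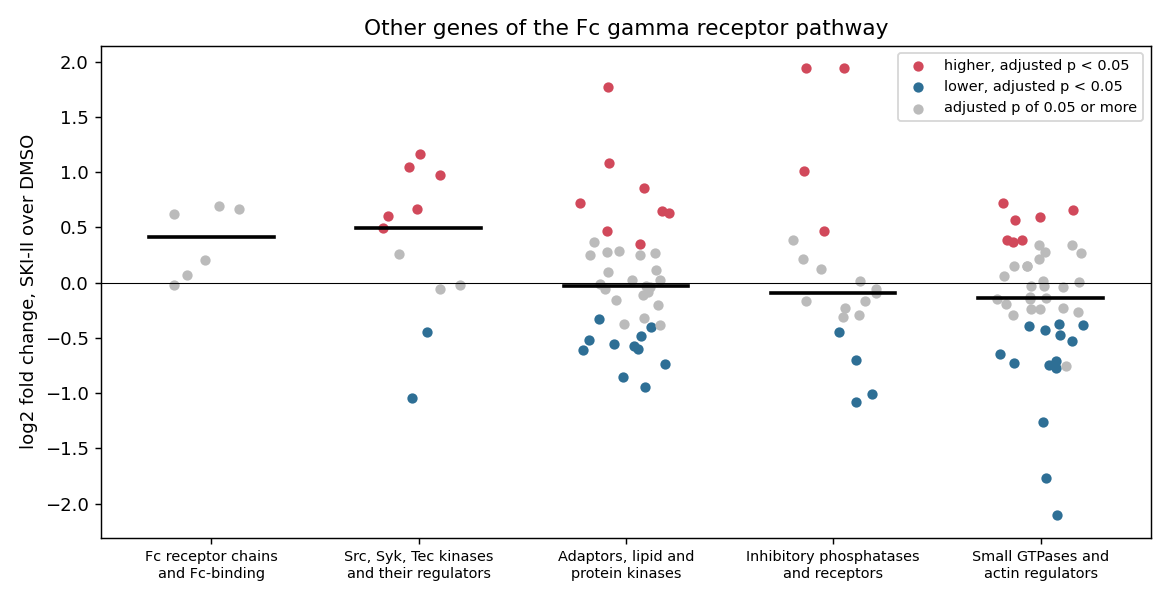
Log2 fold change of SKI-II over DMSO (vertical axis) of each tested gene in 5 lists of the Fc gamma receptor pathway outside the 9 genes, coloured by the call at an adjusted p of 0.05, with a black line at the median of each list. The medians run from -0.14 for the actin regulators to 0.50 for the kinases and their regulators.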

How the data were processed

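Poly(A) RNA of 3 DMSO and 3 SKI-II libraries was sequenced. Per the labels, the authors used Trimmomatic 0.36, STAR 2.5.2b and featureCounts of Subread 1.5.2, and they deposited a table of raw counts per Ensembl gene. The strandedness, the treatment of multiply mapped reads and the genome build were not given in the sources used here. Names and positions came from GENCODE M21 (GRCm38), which matched 49056 of 49315 identifiers. Replicate libraries differed by more than sampling noise (chi-square per degree of freedom 15.4 to 58.1).

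Counts were tested with edgeR 4.0.16 in R 4.3.3 (quasi-likelihood F test, TMM scaling, minimum count 10 and total 15, no covariate). An adjusted p below 0.05 made a call. Scripts were tested on simulated data. DESeq2 1.42.0, limma-voom 3.58.1, other scalings and filters, a replicate block and leaving out each library were alternatives. Ratios were compared by exact permutation tests. The genes named are the 9, Fcer1g, Tyrobp, Sphk1, Sphk2, and per list the 3 called genes that changed most and the called gene that changed most the other way. Members and lists were chosen with earlier results of these data known. Lilrb4a matched no gene, and some genes of the lists are not reported here by name. Lists overlap the markers in Fcer1a and Fcer2a. Promoters came from RefSeq.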

Additional observations from a re-analysis of the deposited data

How the results depend on the processing

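Fcgr1, Fcgr4 and Fgr kept their direction and an adjusted p below 0.05 in all 13 alternatives, with log2 fold changes of 2.06 to 2.29, 0.91 to 1.34 and -1.29 to -0.97, and Lyn and Inpp5d were called in none. Plcg2 was called with scaling by library size alone (-0.31, adjusted p = 0.0467) and with the replicate block (-0.31, adjusted p = 0.0318), so that 2 of the 9 genes were called lower in each. Nothing in the labels says that a number marks a shared batch. Deviations of same-numbered libraries correlated at 0.246, 0.00994 and 0.458, not all above 0.1, and those of other pairs at -0.462 to 0.296. The replicates 3 correlated best with each other, while DMSO replicates 1 and 2 correlated best with SKI-II replicates 2 (0.296) and 1 (0.0417). Seen from SKI-II, replicates 1 and 2 both correlated best with DMSO replicate 1 (0.246 and 0.296). These values do not settle whether the numbers mark pairs, and they were not taken as pairs in the main test. The replicate block called 2765 genes higher and 2819 lower, against 2255 and 2413 in the main test. With the replicate block 1 Fc receptor partner was called higher. For the ratios the block can change only the exact p, which was 0.25 to 1, with 0.25 the smallest possible. With no filter on low counts 1 Fc receptor partner and 4 actin regulators were called higher. The cause was not tested.

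Leaving out each library in turn, the log2 fold change ranged from 0.38 to 0.72 for Fcgr2b, 0.34 to 0.63 for Syk and 0.17 to 0.55 for Fcgr3. Of the 9 genes 2 to 4 were then called higher (2 without DMSO replicate 1 or 2), 1 to 2 with a log2 fold change above 1, and 0 to 1 lower with one below -1. The count called ranged from 0 to 2 for higher Fc receptor partners, 3 to 8 and 6 to 13 for higher and lower downstream genes, and 4 to 7 and 8 to 12 for higher and lower actin regulators. The difference in the log2 ratio of Fcgr3 to Fcgr2b ranged from -0.38 to 0.055, reversed without DMSO replicate 3. The counts per library on these genes ranged from 104 to 4891, and the 95% intervals of the uncalled Fcgr3, Lyn and Inpp5d include 0.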
